A study of Mus musculus with 6 samples.

Results

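Cluster 11 was the largest of the numbered groups into which the authors' annotation divides the monocytes of H22 liver tumors. It held 2481 of 58794 annotated cells and 2481 of 6260 monocytes, beside 1982 cells in cluster 12 and 1797 cells in cluster 13. Members were taken by the deposited class (monocytes) and cluster number (11), with no further selection. All mice were wild-type male C57BL/6J mice, obtained at 8 weeks of age, that carried H22 cells, a mouse hepatocellular carcinoma (HCC) line passaged as ascites and injected into the liver. Control mice (n = 3) stayed in standard housing. Stress mice (n = 3) went through chronic unpredictable mild stress, a changing daily schedule of mild stressors such as restraint or wet bedding. Per the paper, the tumor cells were implanted after this stress schedule had been completed and evaluated. Liver tumor tissue of each mouse was dissociated into single cells and made into its own 10x Genomics library, in which unique molecular identifiers (UMIs) count captured RNA molecules. The implanted tumor is a single transplanted line, and the tissue was not sorted before capture. Control libraries were counted with Cell Ranger 9.0.0 and stress libraries with 7.1.0, so in every contrast the effect of the counting software cannot be told apart from that of stress.

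Macrophages in a liver tumor can be Kupffer cells, the resident phagocytes of the liver sinusoids, or can arise from circulating monocytes. C1qa, C1qb and C1qc encode the chains of C1q, the recognition unit of the classical complement pathway, which tissue macrophages make themselves and which tags dying cells and immune complexes for uptake. H2-Aa, H2-Ab1 and H2-Eb1 encode chains of the MHC class II molecules that show peptides to CD4+ T cells, and Cd74 encodes the invariant chain that guides these molecules through the cell. Apoe encodes a lipid carrier protein.

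Cluster 11 carried the genes of its label together with the general macrophage genes, and the genes that define other cell types were low. At least 3 of the 6 label genes (C1qa, C1qb, C1qc, Apoe, H2-Aa and Cd74) were detected in 2208 of the 2481 cells (89.0%), and at least 3 of 7 macrophage markers in 1657 cells (66.8%). Csf1r, the receptor for the macrophage growth factor, lay between 192 and 265 CPM (UMIs of a gene per 1000000 UMIs summed over the cells of a mouse) in the 6 mice, and the macrophage gene Adgre1 between 56.9 and 143 CPM. Neither gene sets cluster 11 apart from cluster 12. By mouse, Csf1r was found in 65.4% to 73.7% of cells of cluster 11 and in 55.1% to 68.2% of cluster 12. For Adgre1 these ranges were 24.6% to 48.2% and 25.9% to 41.2%. Flt3, the growth factor receptor of dendritic cells, lay between 1.18 and 2.61 CPM in cluster 11, against a mean of 37.0 CPM in the dendritic cell class. Ccr7, the homing receptor of migratory dendritic cells, lay between 0 and 49.8 CPM, against 294 CPM in that class. H2-Aa reached a mean of 4682 CPM in cluster 11 and of 2498 CPM in the dendritic cell class. At least 3 markers of another type were found in 80 cells for NK and T cells, 80 for endothelial cells, 61 for H22 tumor cells, 52 for neutrophils, 17 for dendritic cells, 2 each for B cells and red cells, and 1 each for stellate cells and hepatocytes. Lrat, a defining stellate gene, and Cyp3a11 of hepatocytes had no UMI in any mouse. The markers of classical monocytes and of Arg1 tumor macrophages were present more widely, with at least 3 in 1094 cells (44.1%) and 1558 cells (62.8%) respectively.

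The cells numbered 107, 716 and 112 in control mice 1, 2 and 3. Stress mice 1, 2 and 3 gave 199, 671 and 676 cells. Their summed counts ranged from 765316 UMIs in control mouse 1 to 5916913 UMIs in stress mouse 3, and median UMIs per cell ranged from 5250 to 7730.5. Levels in control mice 1 and 3 and in stress mouse 1 rest on the fewest cells. Scrublet, which scores each cell against simulated doublets, called between 4.46% and 7.48% of the cells per mouse, although the study's methods state that doublets had been removed. A cell barcode was shared by 2 libraries within cluster 11 in 1 case, and 38 cells had a barcode that also occurs in another library.

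Promoters of C1q and class II genes are shown because cluster 11 joins a pair of gene groups with different, well-studied control sequences. C1q genes are transcribed in myeloid cells with the factor PU.1, and MHC class II genes depend on the X and Y boxes at which the coactivator CIITA is assembled. The sequences are RefSeq promoters on GRCm38.p6, the 250 bases before the RefSeq start of each gene, in the direction of the gene. C1qb lies at chr4:136886201-136886450 on the minus strand and C1qc at chr4:136892915-136893164 on the minus strand. H2-Aa lies at chr17:34287824-34288073 on the minus strand and H2-Eb1 at chr17:34305617-34305866 on the plus strand. Capitals mark the letters GAGGAA of a PU.1 site in either direction in the C1q promoters, and the X box letters CTNGCAACT and the Y box letters CTGATTGG in the class II promoters.
C1qb: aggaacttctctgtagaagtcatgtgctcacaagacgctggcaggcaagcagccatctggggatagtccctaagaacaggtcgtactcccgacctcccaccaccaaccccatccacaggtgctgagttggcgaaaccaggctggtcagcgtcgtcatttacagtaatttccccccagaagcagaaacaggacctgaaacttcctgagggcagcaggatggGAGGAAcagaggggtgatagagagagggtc
C1qc: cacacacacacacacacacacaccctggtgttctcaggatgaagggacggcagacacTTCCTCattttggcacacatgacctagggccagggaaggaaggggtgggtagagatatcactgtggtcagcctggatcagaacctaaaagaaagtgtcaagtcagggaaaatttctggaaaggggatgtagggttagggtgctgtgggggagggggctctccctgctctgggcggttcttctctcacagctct
H2-Aa: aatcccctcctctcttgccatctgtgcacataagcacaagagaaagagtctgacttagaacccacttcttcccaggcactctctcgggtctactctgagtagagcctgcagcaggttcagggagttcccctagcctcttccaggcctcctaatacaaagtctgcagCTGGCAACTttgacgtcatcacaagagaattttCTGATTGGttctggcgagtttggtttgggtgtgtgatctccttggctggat
H2-Eb1: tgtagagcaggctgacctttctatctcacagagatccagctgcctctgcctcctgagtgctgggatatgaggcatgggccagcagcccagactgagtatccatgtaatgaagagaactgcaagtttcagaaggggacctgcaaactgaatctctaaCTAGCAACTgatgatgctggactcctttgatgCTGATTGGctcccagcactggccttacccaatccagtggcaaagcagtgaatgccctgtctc
GENCODE places the start of C1qc further upstream, so that 151 bases of its window lie inside the GENCODE gene, and that of C1qb 13 bases below its window. Positions are counted from the RefSeq start. Both strands of each window were searched for all 3 motifs. In H2-Aa the X box spans positions -84 to -76 and the Y box -51 to -44 before the start, and in H2-Eb1 they span -94 to -86 and -62 to -55. The PU.1 letters span -30 to -25 in C1qb and, on the opposite strand, -193 to -188 in C1qc. Of 32851 promoters of the same length, 0.779% held the X box letters, 3.83% the Y box letters and 23.3% the PU.1 letters. The X box letters were written down after these promoters had been read, so their share is a description. These matches describe the sequence and were not tested for binding.

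The C1q genes differed widely between mice. C1qa, at chr4:136895917-136898803 in GRCm38 beside C1qb and C1qc, was measured at 3037, 1214 and 2674 CPM in control mice 1, 2 and 3 and at 2297, 1184 and 1172 CPM in stress mice 1, 2 and 3. C1qc was measured at 2425, 1029 and 1968 CPM in the control mice and at 1830, 848 and 807 CPM in the stress mice. Both genes were high in control mice 1 and 3 and stress mouse 1 and low in the other 3 mice, so the groups overlapped. C1qb showed the same split, with 2023, 988 and 1942 CPM in control mice, against 2096, 1018 and 934 CPM in stress mice. Apoe repeated the pattern over a wider range, from 10824, 1212 and 7979 CPM in control mice to 7078, 1939 and 1572 CPM in stress mice. The mice with high C1q and Apoe were those with the fewest cells in cluster 11. Their libraries also held more UMIs per cell over all annotated cells. The medians were 18291 and 16864.5 UMIs in control mice 1 and 3 and 20478 in stress mouse 1. In control mouse 2 the median was 9032 UMIs, and in stress mice 2 and 3 it was 7656 and 7166. Within cluster 11 the median depths did not divide the mice in this way. The part of library depth in these levels was not tested.

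The class II genes varied less. H2-Aa was measured at 4292, 5496 and 4140 CPM in control mice and at 4389, 5208 and 4564 CPM in stress mice. Cd74 was measured at 5539, 8320 and 5541 CPM in control mice and at 5915, 6989 and 6744 CPM in stress mice. The lowest and highest mouse differed 1.33-fold for H2-Aa and 1.5-fold for Cd74, against 2.59-fold for C1qa and 8.93-fold for Apoe. In both class II genes control mouse 2 was highest and the stress mice lay within the control range.

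Beside the other monocyte clusters, cluster 11 stood out by these genes in every mouse. The clusters were formed from the same genes, so the levels are a description with no test. C1qa had a mean of 1930 CPM over the 6 mice in cluster 11, 65.7 CPM in cluster 12 and 191 CPM in cluster 13. H2-Aa had means of 4682, 318 and 532 CPM, and Cd74 of 6508, 746 and 978 CPM. For all 3 C1q genes and for H2-Aa, H2-Ab1, H2-Eb1 and Cd74, the lowest mouse of cluster 11 lay above the highest mouse of clusters 12 and 13. Apoe did not separate in this way, since its 1212 CPM in cluster 11 of control mouse 2 lay below its 2782 CPM in cluster 12 of control mouse 1. The class II genes in clusters 12 and 13 were far from even across mice. H2-Aa lay at 29.8, 685 and 10.9 CPM in cluster 12 of control mice and at 77.7, 537 and 567 CPM in stress mice. In cluster 13 it lay at 34.1, 940 and 22.3 CPM in control mice and at 134, 1467 and 597 CPM in stress mice. In both clusters it was high in control mouse 2 and stress mice 2 and 3, the mice in which cluster 11 made up the largest share of all cells. The part of that share in these values was not tested.

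**Figure D1:**
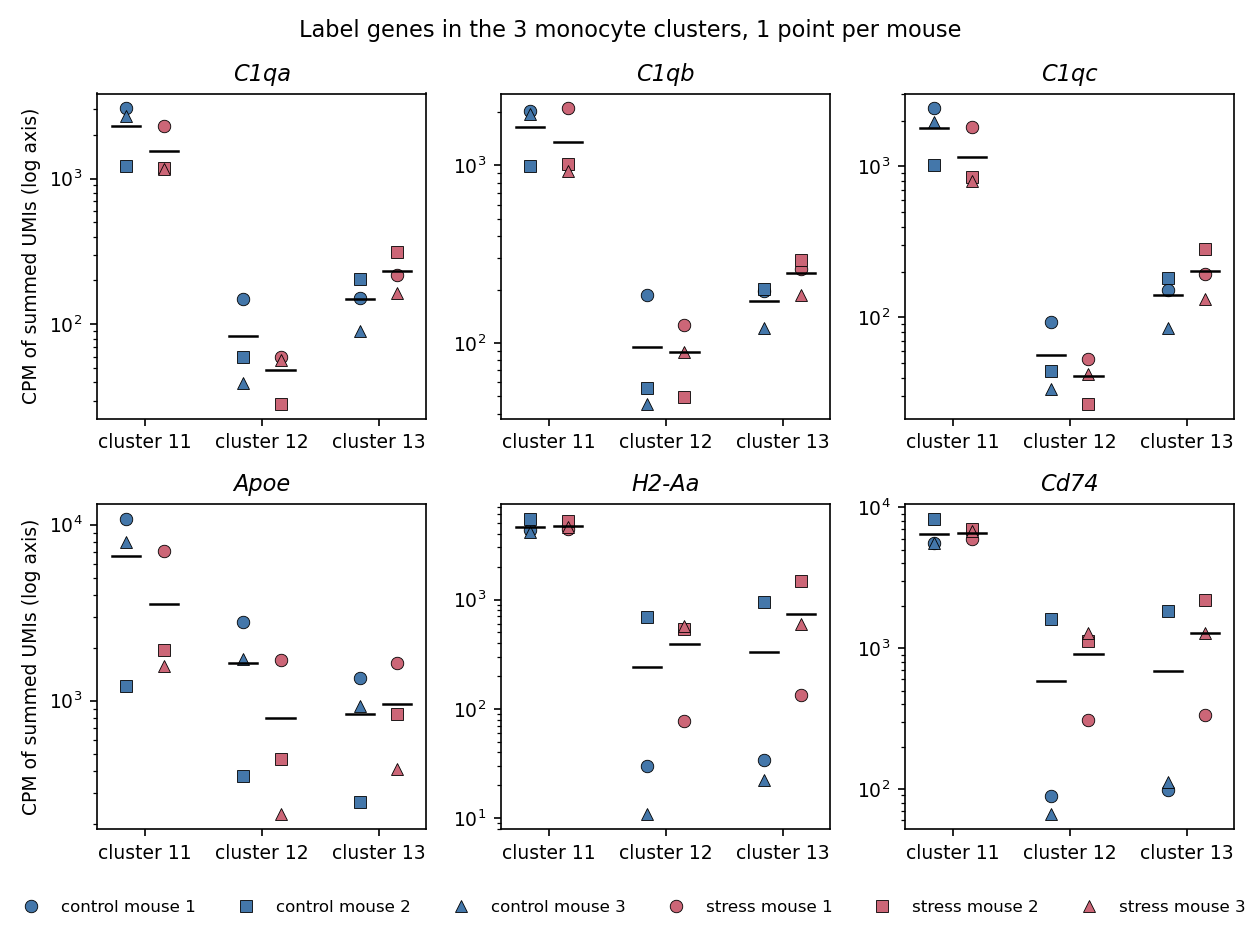
Levels of the 6 label genes in monocyte clusters 11, 12 and 13, with 1 point per mouse, group means as bars, and CPM of summed UMIs on a log axis. C1q genes and Apoe spread over mice within cluster 11, from 1172 to 3037 CPM for C1qa, while H2-Aa stays between 4140 and 5496 CPM there and spreads from 10.9 to 685 CPM in cluster 12.

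Among genes with at least 100 CPM in cluster 11, the largest ratio to the higher of clusters 12 and 13 belonged to the monocyte-attracting chemokine Ccl8, with a mean of 204 CPM and a ratio of 131. Ccl8 was uneven, with 310, 38.4 and 266 CPM in control mice, against 117, 61.6 and 430 CPM in stress mice. Ccl8 was found in 8.34% of the cells. Next were Cd5l, a secreted protein of Kupffer cells (106 CPM, ratio 47.6), the adhesion molecule Vcam1 (316 CPM, ratio 16.5) and Ccl17, a ligand of the chemokine receptor Ccr4 (ratio 12.0). Cd5l was found in 3.51% of the cells. For 5 of the 20 leading genes (Cd5l, Ccl17, Apoc1, Ctla2a and Cxcl9) the lowest mouse of cluster 11 lay below the highest mouse of clusters 12 and 13, as with 4.58 and 5.28 CPM for Cd5l. Of the 20 leading genes, 7 were class II or C1q genes, with ratios of 11.8 for H2-Eb1, 10.1 for C1qa, 8.8 for H2-Aa, 8.63 for C1qc, 8.48 for H2-Ab1, 7.13 for C1qb and 6.65 for Cd74. The T cell-attracting chemokines Ccl5 (668 CPM, ratio 7.14) and Cxcl9 (455 CPM, ratio 4.27) and the interferon-induced GTPase gene Iigp1 (131 CPM, ratio 5.31) were also among them. The mannose receptor gene Mrc1 had a ratio of 7.56. The ratios compare monocyte clusters only. Ccl5 had a mean of 5793 CPM in NK/T cells, and Mrc1 of 682 CPM in endothelial cells against 260 CPM in cluster 11. Cxcl9 was lower outside the monocytes, with at most 130 CPM, in dendritic cells. The part of transcripts from other cells in these levels was not tested. Several of the 20 leading genes followed single mice. Ctla2a reached 489 CPM in control mouse 3 and lay between 32.7 and 96.7 CPM elsewhere, and Ccl17 lay at 3.92 CPM in control mouse 1 and at 220 CPM in control mouse 2.

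Genes of the other clusters were lower in cluster 11 but not absent. Ly6c2, the surface marker of classical monocytes, had means of 120 CPM in cluster 11 and 569 CPM in cluster 12. Chil3, another monocyte gene, had means of 380 and 3356 CPM. Arg1, which breaks down arginine, had means of 881 CPM in cluster 11 and 2855 CPM in cluster 13, and Spp1, which encodes osteopontin, had 1104 and 8007 CPM. The proteoglycan gene Vcan had 44.1 CPM in cluster 11, 319 CPM in cluster 12 and 166 CPM in cluster 13.

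C1q transcripts were detected in fewer cells than class II transcripts. A cell with no UMI at a given depth may still express the gene. After each cell was thinned to 1000 UMIs, which left out 45 cells below that depth, at least 1 UMI of a C1q gene was found in 65.4% and of H2-Aa, H2-Ab1, H2-Eb1 or Cd74 in 98.4% of 2436 cells. Both were found in 64.7% of cluster 11, 5.53% of cluster 12 and 16.2% of cluster 13, and the first of these nearly equals the C1q share because class II UMIs were found in almost all cells. By mouse, both were found in 86.4%, 64.0% and 63.8% of cells in control mice, against in 85.3%, 61.1% and 59.5% in stress mice. The median cell held 10, 2 and 5 C1q UMIs per 1000 in control mice, against 5, 2 and 1 in stress mice. No C1q UMI was seen in 35.9% of the cells of control mouse 2, 38.7% of stress mouse 2 and 40.5% of stress mouse 3, against 6.80% in control mouse 1, 31.4% in control mouse 3 and 12.7% in stress mouse 1. No class II UMI was seen in 7.77% of the cells of control mouse 1, 15.2% of control mouse 3 and 2.54% of stress mouse 1, against 0.284% to 0.602% in the 3 mice with the most cells, which weigh most in the pooled share. Outside the monocytes, C1qa had means of 239.7 CPM in endothelial cells, 58.7 CPM in dendritic cells and 1.56 to 13.3 CPM in the other 7 classes. Endothelial cells had a UMI of it in 48.3% of cells, and in 21.5% after thinning, against 66.1% and 49.9% of cluster 11 (median depths 4538 and 6355 UMIs). The corresponding shares of H2-Aa were 6.77% and 2.09% of endothelial cells against 97.6% and 94.0% of cluster 11.

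A small set of cells with Kupffer cell markers sat within cluster 11. The set was defined after the data were seen as cells with UMIs of at least 2 of the 6 markers Clec4f, Vsig4, Timd4, Cd5l, Marco and Folr2. It held 78 cells (3.14%), against 3 cells of cluster 12 and 5 cells of cluster 13. Such cells numbered 9, 3 and 12 in control mice, or 8.41%, 0.419% and 10.7% of cluster 11. They numbered 25, 14 and 15 in stress mice, or 12.6%, 2.09% and 2.22%. The share was highest in stress mouse 1 and control mice 3 and 1 and lower in the other 3 mice, so the groups overlapped. After thinning, 2.09% of cluster 11 cells and 0.249% of endothelial cells met the same criterion. The summed level of the 6 markers was 256, 13.3 and 741 CPM in control mice, against 915, 78.5 and 176 CPM in stress mice. Clec4f, the lectin that defines Kupffer cells in mice, lay at 48.3, 3.05 and 108 CPM in control mice and at 157, 15.0 and 20.8 CPM in stress mice.

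The Kupffer-marker cells and the cells with none of the 6 markers differed in genes that the criterion did not use, given here as a description. The iron exporter Slc40a1 had a mean over mice of 658 CPM in the Kupffer-marker cells and 3.67 CPM in the others, the hemoglobin scavenger receptor Cd163 190 and 0.304 CPM, the ficolin gene Fcna 408 and 1.71 CPM, and Apoc1 1363 and 9.61 CPM. The transcription factor genes Id3 (886 and 190 CPM) and Maf (703 and 165 CPM), and Adgre1 (316 and 82.0 CPM), were likewise higher in 6 of 6 mice. In control mouse 2 the Kupffer-marker levels rest on 3 cells, and Adgre1 lay there at 74.3 against 67.2 CPM. C1qa was higher in 5 of 6 mice, with means of 3181 and 1828 CPM, and C1qc in 5 of 6, with 3031 and 1378 CPM. The class II genes were lower in 6 of 6 mice, with 2168 and 4860 CPM for H2-Aa and 3331 and 6721 CPM for Cd74. Of the monocyte genes compared, Ly6c2 (10.7 and 129 CPM) and the chemokine receptor gene Ccr2 (51.4 and 172 CPM) were also lower in 6 of 6 mice, while Plac8 (1255 and 1311 CPM) was higher in 3 and lower in 3. The cytokine gene Il1b, with 1281 and 4097 CPM, and Cxcl9, with 98.0 and 478 CPM, were lower as well. The order of mice in C1qa remained in cells with no Kupffer marker, at 3040, 1190 and 2466 CPM in control mice, against 2055, 1138 and 1076 CPM in stress mice.

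**Figure D2:**
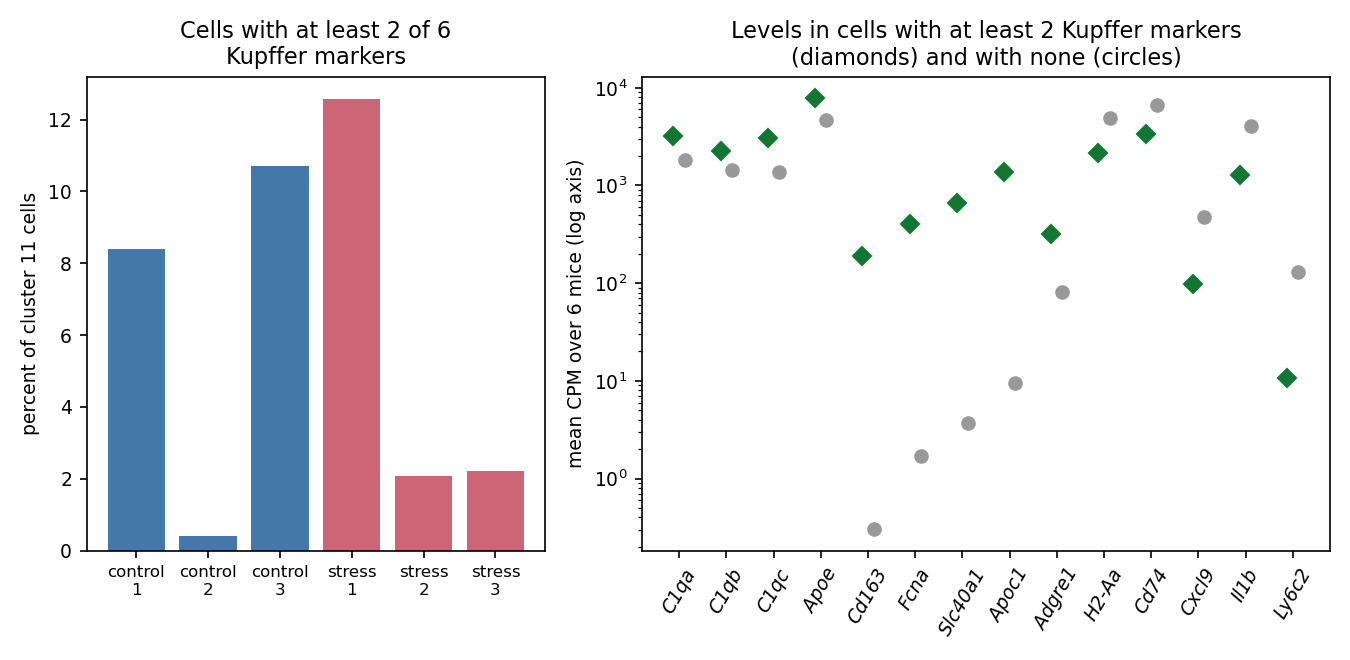
Share of cluster 11 cells with at least 2 of 6 Kupffer markers in each mouse (left, percent of cells) and mean CPM over 6 mice, on a log axis, of 14 genes in these cells (diamonds) and in cells with none of the markers (circles) (right). The share runs from 0.419% to 12.6% with both groups spread over that range, and class II genes lie lower and C1q genes higher in the diamonds.

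The share of cluster 11 did not separate the groups, and the control mice spread more widely than the stress mice among the monocytes. It held 25.5%, 51.7% and 18.3% of the monocytes of control mice, with exact 95% binomial intervals of 21.4% to 29.9%, 49.0% to 54.4% and 15.3% to 21.6%. It held 41.6%, 41.5% and 38.7% in stress mice, with intervals of 37.2% to 46.2%, 39.1% to 44.0% and 36.4% to 41.0%. Control mice averaged 31.8% ± 17.6 (SD, n = 3) and stress mice 40.6% ± 1.69 (SD, n = 3), and the stress values lay inside the control range. The difference of 8.78 percentage points gave p = 0.40 in a two-sided exact permutation test over the mice, which cannot go below 0.10 with 3 against 3. Without control mouse 2 the difference was 18.7 points, and without control mouse 3 it was 2.02 points. Of all cells, cluster 11 made up 1.02%, 6.09% and 1.21% in control mice, against 2.75%, 7.11% and 6.39% in stress mice, with means of 2.77% ± 2.88 and 5.42% ± 2.34 (SD, n = 3 each). Control mouse 2 lay among the stress mice, and the exact permutation p was 0.20. Without control mouse 2 that difference was 4.3 points, against 2.64 points with all mice. These intervals cover counting error only, and the recovery of macrophages from dissociated tissue was not measured.

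**Figure D3:**
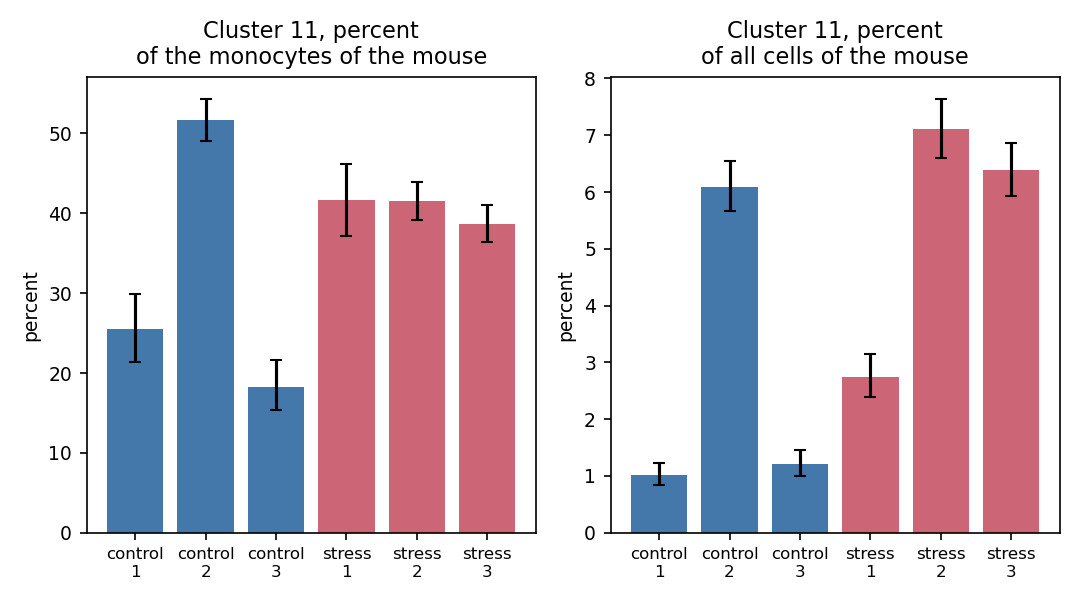
Cluster 11 as a percent of the monocytes (left) and of all cells (right) of each mouse, with exact 95% binomial intervals as error bars. Control mouse 2 reaches 51.7% of monocytes, above the stress mice, and 6.09% of all cells, among them.

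The contrast of stress and control mice within cluster 11 asked which genes of these macrophages move with chronic stress. For each mouse the UMIs of its cluster 11 cells were added up, and edgeR's quasi-likelihood test with Benjamini-Hochberg adjustment was run over 10809 genes. It called 11 genes (0.102% of those tested), 10 higher (0.0925%) and 1 lower (0.00925%) in stress mice, and 1232 genes had an unadjusted p under 0.05. DESeq2 called 129 of the same 10809 genes. None of the 6 label genes was called. C1qa had a log2 fold change of -0.47 (SE 0.36, adjusted p = 0.653), C1qb of -0.20 (SE 0.35, adjusted p = 0.885), C1qc of -0.54 (SE 0.37, adjusted p = 0.617) and Apoe of -0.81 (SE 0.74, adjusted p = 0.721). Without stress mouse 1 the value of Apoe was -1.79 (adjusted p = 0.444). Of 15 alternatives, Apoe passed the threshold in 1 and the other label genes in none. H2-Aa had 0.11 (SE 0.18, adjusted p = 0.877) and Cd74 0.10 (SE 0.22, adjusted p = 0.908), both near 0 and of either sign among the alternatives. Leaving out a mouse changed the count of called genes to 3 (without control mouse 3), 5 (without control mouse 1, stress mouse 2 or stress mouse 3), 7 (without stress mouse 1) or 57 (without control mouse 2).

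The called genes Cmss1, Gphn, Lars2, Camk1d and Cdk8 encode a ribosome-associated protein, the receptor anchor gephyrin, the mitochondrial leucyl-tRNA synthetase, a calcium-dependent kinase and a Mediator kinase. They had the smallest adjusted p. Cmss1 was measured at 155, 107 and 122 CPM in control mice and at 825, 1029 and 1015 CPM in stress mice. Its log2 fold change was 3.01 (SE 0.20, adjusted p = 0.000968). Lars2 was measured at 308, 235 and 275 CPM and at 1107, 1335 and 1145 CPM (log2 fold change 2.23, SE 0.17, adjusted p = 0.00125). The stress mice lay far above the control mice in each of the 5 genes. The same genes were higher in every stress mouse than in every control mouse in all 9 other cell classes of the annotation, so the difference was not particular to macrophages. The counting versions divide the mice in the same way, and their part in the result cannot be told apart from that of stress.

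The remaining called genes separated the groups in fewer of the other classes. Mitochondrial mt-Atp8, part of ATP synthase, was measured at 53.6, 41.4 and 45.7 CPM in control mice and at 129, 144 and 198 CPM in stress mice, and separated the groups in 8 of 9 other classes. Eno1b, a copy of the enolase gene Eno1 on chromosome 18, was the only gene called lower, with 44.4, 40.1 and 42.2 CPM against 13, 11.3 and 13.9 CPM, and was lower in 8 of 9 other classes. Eno1 itself lay at 110, 182 and 185 CPM in control mice, against 165, 174 and 242 CPM in stress mice, with overlap. Eno1b is a near-identical copy of Eno1, so its value is uncertain, and how reads were divided between them was not tested. The long noncoding RNA gene Gm11290 was measured at 15.7, 21.6 and 19.4 CPM against 85.5, 59.7 and 115 CPM, and separated in 5 of 9 other classes. In edgeR the adjusted p was 0.0215 for mt-Atp8, 0.0192 for Eno1b and 0.0375 for Gm11290. Of 15 alternatives, mt-Atp8 passed the threshold in 11, Eno1b in 9 and Gm11290 in 10, with adjusted p up to 0.174, 0.231 and 0.230.

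Odc1 and Sfmbt1 separated in few other classes. Odc1, the rate-limiting enzyme of polyamine synthesis (chr12:17544794-17551505, GRCm38), was measured at 195, 225 and 146 CPM in control mice and at 580, 501 and 480 CPM in stress mice. Every stress mouse lay above every control mouse, with a log2 fold change of 1.54 (SE 0.20, adjusted p = 0.0272). It separated in inflammatory myeloid cells and NK/T cells but not in the other 7 classes. In cluster 12 its log2 fold change was 1.14 (adjusted p = 0.286) and in cluster 13 0.88 (adjusted p = 0.459). Sfmbt1, a Polycomb-related protein gene (chr14:30714849-30822721), was measured at 47.0, 41.4 and 44.5 CPM and at 121, 110 and 89.9 CPM (log2 fold change 1.36, SE 0.17, adjusted p = 0.0272). Among the other classes it separated in neutrophils alone, while within the monocytes it also separated in clusters 12 and 13, with log2 fold changes of 1.27 (adjusted p = 0.114) and 1.04 (adjusted p = 0.173). None of the 11 genes was called in the test of the difference of stress effects between cluster 11 and cluster 12 or 13. Both genes lost the threshold when any mouse but control mouse 2 was left out, with adjusted p up to 0.174, and after thinning (0.0630 for Odc1 and 0.258 for Sfmbt1).

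Tm4sf4, a membrane protein of biliary and other epithelia, rested on few cells. It had 0, 1 and 0 UMIs in control mice, against 13, 37 and 49 UMIs in stress mice, found in 0, 1 and 0 and in 4, 8 and 4 cells. The ratio of its level in stress to control mice was 50.2, with a counting interval from 8.8 to 2001. That interval treats each UMI as independent, although the 99 UMIs of stress mice came from 16 cells. It covers no spread between cells or mice. Cells with UMIs of at least 3 of Tm4sf4, Fxyd3, Sox9, Pkhd1, Mmp7 and Krt7, all genes of duct-type epithelium chosen after the values were seen, numbered 9 in cluster 11. They came from the stress mice (2, 4 and 3 cells), and 1 of them was a called doublet. They held 92 of the 100 Tm4sf4 UMIs, a share that the criterion fixes in part since it uses Tm4sf4. They also held 147 UMIs of the epithelial adhesion gene Epcam and 2246 of the 19962 Spp1 UMIs of cluster 11. They held 0 UMIs of C1qa and of the macrophage lysozyme gene Lyz2, but 75 UMIs of H2-Aa and 220 of Cd74. Without these 9 cells, 10 genes were called and Tm4sf4 no longer passed the filter on low counts. Clusters 12 and 13 held 1 and 2 such cells.

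**Figure D4:**
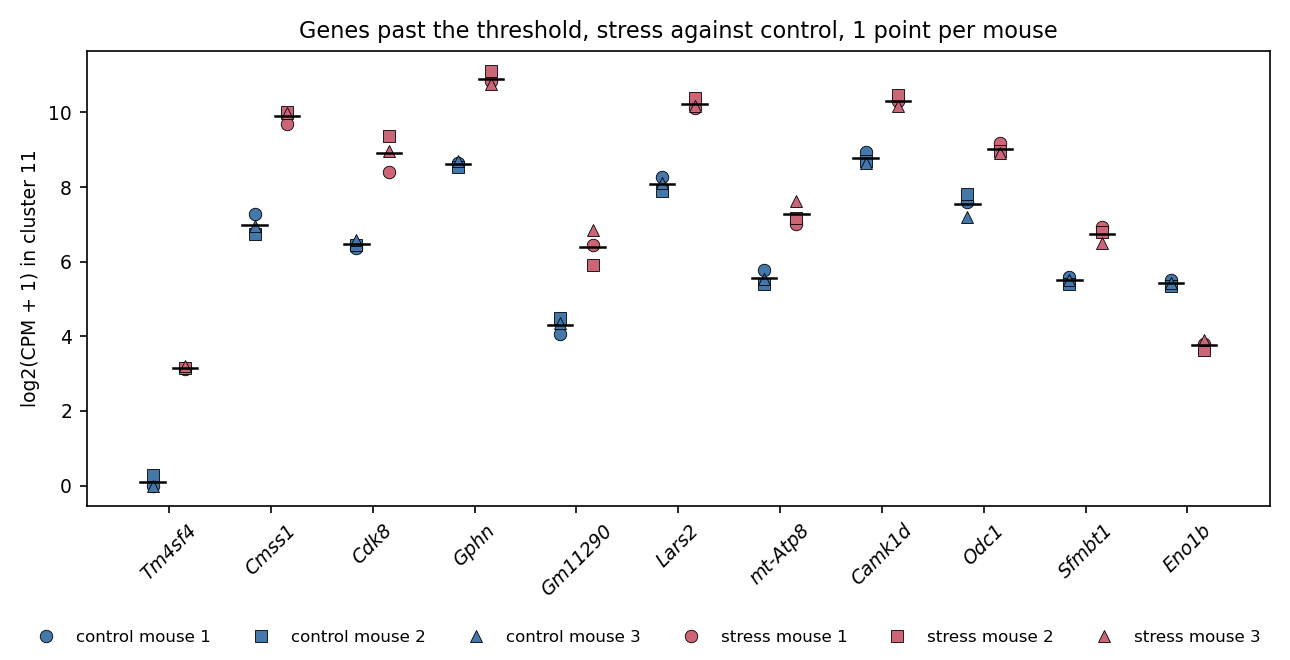
Levels of the 11 genes called between stress and control mice in cluster 11, as log2(CPM + 1) of the summed UMIs, with 1 point per mouse and a bar at each group mean. All stress points lie above all control points for 10 genes and below them for Eno1b, and Tm4sf4 lies near 0 in control mice.

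The gene lists of macrophage functions were described by their summed levels and by how many members separated the groups. In the whole test, 7.06% of genes were higher and 12.3% lower in every stress mouse than in every control mouse by CPM. After TMM scaling these shares were 9.68% and 9.07%, and the median log2 fold change of all genes was -0.0045. Over all 10809 genes DESeq2 called 129, beside which its calls in each list are to be read. No gene of the lists passed the threshold apart from the 5 genes named first above, which had been listed as high in stress mice in all cell types and were therefore chosen on these samples.

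No gene of complement or antigen presentation passed the threshold. The complement list summed to 8667, 4473 and 8126 CPM in control mice, against 7526, 4060 and 4287 CPM in stress mice, and followed the C1q genes. Of its 20 tested genes the receptor gene C5ar2 was higher and the factor B gene Cfb was lower in all stress mice, Cfb by CPM alone, and the median log2 fold change was -0.10. The MHC class II list summed to 21706, 28057 and 21062 CPM and to 21060, 24825 and 22818 CPM. Of its 16 tested genes the costimulatory receptor gene Cd40 was higher, the costimulatory ligand gene Cd86 and the protease gene Ctss were lower without overlap, and the median was 0.11. Cd86 was measured at 502, 730 and 485 CPM in control mice and at 336, 392 and 264 CPM in stress mice. The MHC class I list summed to 5364, 7936 and 6825 CPM and to 6242, 6795 and 8112 CPM. Its light chain gene B2m was measured at 1410, 2115 and 1821 CPM and at 2215, 2241 and 3116 CPM (log2 fold change 0.59, SE 0.24, adjusted p = 0.393). The heavy chain gene H2-K1 was lower in every stress mouse by CPM but not after TMM scaling (log2 fold change -0.42, SE 0.20, adjusted p = 0.470). H2-T23 was the other class I gene above the control range in all stress mice by CPM, and H2-Q4 joined it after TMM scaling.

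The inflammatory genes that separated the groups all lay higher in stress mice. It summed to 5198, 9818 and 8018 CPM in control mice and to 10642, 12412 and 15557 CPM in stress mice, so that the groups did not overlap. Of its 18 tested genes, 16 had a log2 fold change above 0, with a median of 0.50, and 5 were higher without overlap, namely Il1b, Il1rn, Cxcl9, Ptgs2 and Acod1. Il1b was measured at 1024, 3747 and 2201 CPM in control mice and at 3844, 5654 and 6962 CPM under stress (log2 fold change 1.31, SE 0.44, adjusted p = 0.305). Control mouse 2 lay close below stress mouse 1. Ptgs2, which encodes the prostaglandin-forming enzyme cyclooxygenase 2, was measured at 233, 521 and 408 CPM and at 1029, 1034 and 1635 CPM (log2 fold change 1.74, SE 0.34, adjusted p = 0.10). Both missed the threshold in edgeR, and DESeq2 called 2 genes of the list, Ptgs2 and Acod1. After TMM scaling Nlrp3 separated as well. The same list summed to 8058, 12249 and 10437 CPM in cluster 13 of control mice and to 15379, 14078 and 21135 CPM in stress mice. In cluster 12 the sums were 9850, 9589 and 9575 CPM and 11446, 10275 and 16439 CPM, so the sums separated in all 3 clusters. Without Il1b, the most abundant gene of the list, the sums of the other 17 genes still separated in cluster 11, at 4173, 6071 and 5817 CPM in control mice and at 6798, 6759 and 8595 CPM in stress mice, but overlapped in clusters 12 and 13. That sum was computed after the values were seen.

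The chemokine genes beyond the control range lay mostly above it. The list summed to 8283, 11861 and 12409 CPM in control mice and to 14791, 11532 and 16683 CPM in stress mice, with overlap at stress mouse 2. Of its 20 tested genes, Ccl4, Cxcl1, Cxcl9 and Cxcl16 were higher and the platelet gene Ppbp lower without overlap, with a median log2 fold change of 0.49. DESeq2 called 3 of the list, Cxcl1, Cxcl3 and Ppbp. Ccl4, a chemokine gene of activated macrophages, was measured at 515, 1624 and 531 CPM and at 1854, 2021 and 1824 CPM (log2 fold change 1.16, SE 0.42, adjusted p = 0.344). Without control mouse 2, the highest control, the log2 fold change was 1.96 (adjusted p = 0.00486). In cluster 12 it lay at 831, 2187 and 1052 CPM and at 1337, 732 and 1089 CPM. In cluster 13 it also separated the groups, at 785, 2561 and 1250 CPM and at 3031, 2945 and 2618 CPM. The difference of the stress effect on Ccl4 between clusters 11 and 12 was 1.57 on the log2 scale (SE 0.26, adjusted p = 0.144), past the threshold in DESeq2 (adjusted p = 0.000155) and, in edgeR, with no filter on low counts or without control mouse 2 (adjusted p = 4.08e-08 and 0.0227). Against cluster 13 the difference was 0.32 (SE 0.26) and was not called. Ccl4 was picked out for these differences after its values were seen.

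Genes that answer to acute stimuli lay in both directions. Of the 18 genes of the immediate-early and heat shock list, the chaperone genes Hspa1a, Hspa1b, Hsp90aa1 and Hsph1 were higher and the immediate-early genes Fos, Junb, Egr1 and Ier2 lower without overlap. Hspa1a was measured at 122, 104 and 234 CPM in control mice and at 713, 304 and 322 CPM in stress mice. Fos was measured at 2172, 1400 and 1612 CPM and at 1151, 499 and 503 CPM (log2 fold change -1.17, SE 0.33, adjusted p = 0.222). After TMM scaling 7 genes of the list were higher and 3 lower without overlap, Junb no longer among the latter. DESeq2 called 4 of them, Fos, Hspa1a, Hspa1b and Hsp90aa1. The glucocorticoid response list, genes induced by the hormone released under stress, summed to 9214, 4793 and 6304 CPM in control mice and to 5667, 3909 and 4584 CPM in stress mice. Its median log2 fold change was -0.44 over 17 genes, and Dusp1 and Cebpd were lower without overlap, while Klf4 was higher without overlap after TMM scaling alone. Dusp1, a phosphatase gene, was measured at 2328, 2055 and 1976 CPM and at 1527, 1063 and 1181 CPM (log2 fold change -0.66, SE 0.18, adjusted p = 0.221). Fkbp5 and Tsc22d3, induced by the glucocorticoid receptor, did not separate. Fkbp5 lay at 287, 61.5 and 224 CPM in control mice and at 169, 46.6 and 53.6 CPM in stress mice.

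Lipid-associated genes summed to 20692, 8537 and 17678 CPM in control mice and to 17866, 9246 and 10913 CPM in stress mice, and of 21 tested genes the lysosomal lipase gene Lipa was higher without overlap. The alternative activation list summed to 3003, 2608 and 3361 CPM in control mice and to 2633, 2149 and 3325 CPM in stress mice, with overlap. Of its 14 tested genes, 10 had a log2 fold change above 0, with a median of 0.41, and Il4ra and Vegfa were higher without overlap. Vegfa, the main growth factor of blood vessels, was measured at 246, 212 and 167 CPM in control mice and at 385, 331 and 386 CPM under stress (log2 fold change 0.92, SE 0.18, adjusted p = 0.10). Of 19 genes of signals to endothelium, Vegfa, Pdgfb, Nrp1 and Nrp2 were higher and Plxnb2 lower. Of 16 efferocytosis genes, only the integrin gene Itgav was higher, with 116, 120 and 126 CPM against 373, 237 and 260 CPM (log2 fold change 1.35, SE 0.21, adjusted p = 0.0751). DESeq2 called both Vegfa and Itgav. Interferon-stimulated genes summed to 1198, 3321 and 2073 CPM and to 1920, 3153 and 3126 CPM, and of 23 genes Rsad2 was higher and Irf1 lower. Of 15 macrophage identity genes Cd14 and Aif1 were higher, while the sum of the list was lower in every stress mouse, at 7909, 9050 and 8168 CPM against 7635, 7711 and 7874 CPM. Without the lysozyme gene Lyz2, its most abundant member, the other 14 genes summed to 4189, 3734 and 4150 CPM against 4946, 3699 and 4098 CPM, with overlap. Cd14, the co-receptor for endotoxin, was measured at 1079, 1035 and 1161 CPM against 1473, 1283 and 1592 CPM. None of 15 Kupffer cell genes and none of 17 checkpoint genes separated the groups in either direction. Of 20 cell cycle genes, 3 were higher (Stmn1, Mcm5 and Pcna) and 3 lower (Ccnb1, Ccnb2 and Ube2c). Of 18 glycolysis and hypoxia genes, 2 were higher and 7 lower by CPM, and 2 were higher and 1 lower after TMM scaling. In the edgeR fit 13 of them had a log2 fold change below 0, with a median of -0.22. F11r, the receptor of the endothelial junction protein Jam2, lay at 67.9, 60.9 and 61.7 CPM in control mice and at 60.8, 56.0 and 71.7 CPM in stress mice, and its log2 fold change was 0.09 (SE 0.17, adjusted p = 0.90).

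**Figure D5:**
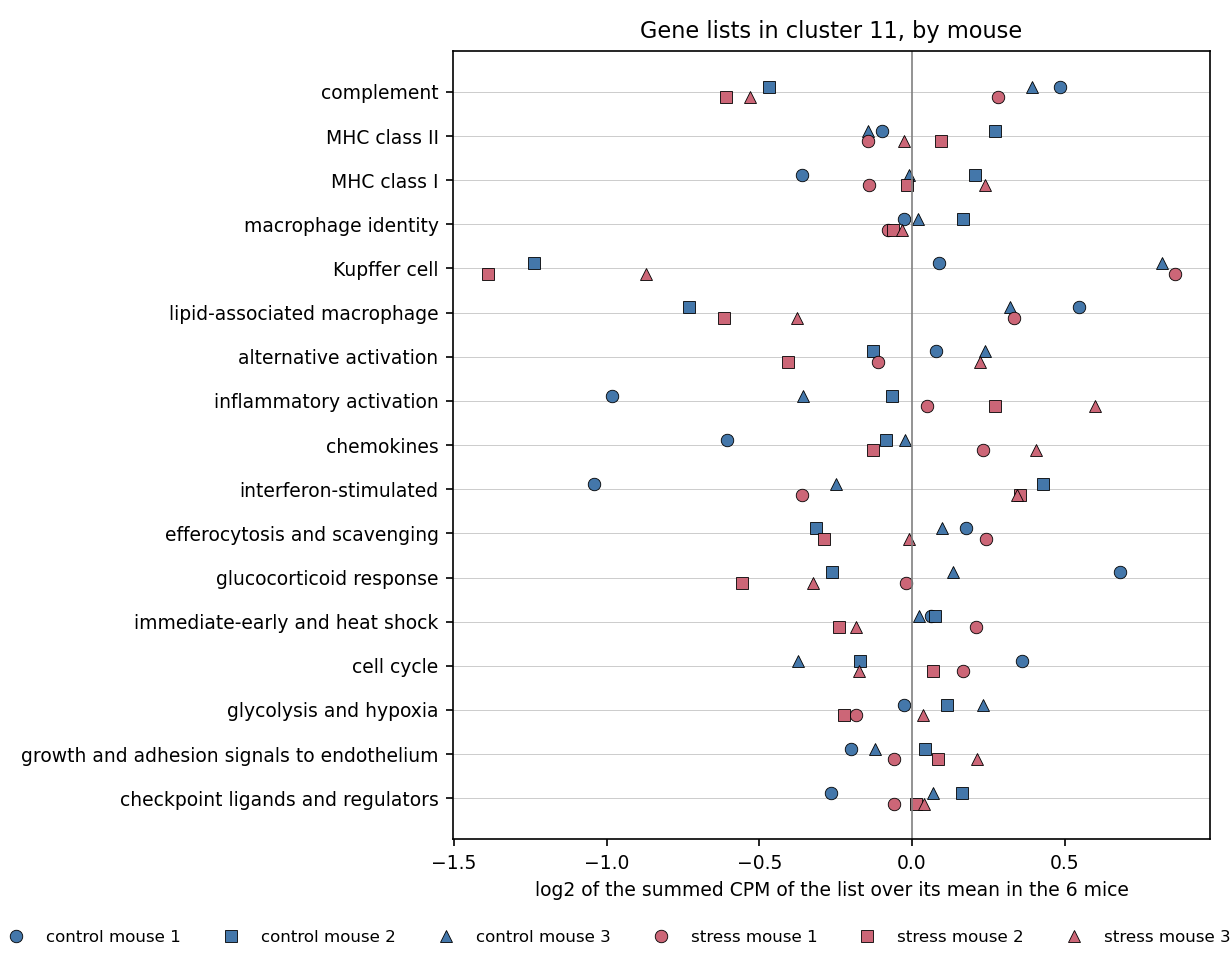
Summed CPM of each gene list in cluster 11 by mouse, as log2 of the sum over its mean in the 6 mice. The stress points of the inflammatory list all lie to the right of its control points and those of the macrophage identity list to the left, where the sum without Lyz2 overlaps, while the complement, Kupffer cell and lipid-associated lists place control mice 1 and 3 and stress mouse 1 on the same side.

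Markers of some other cell types moved with some of these values. The summed hepatocyte markers lay at 0, 0.872 and 5.71 CPM in control mice and at 24.2, 10.9 and 50.5 CPM in stress mice. The 6 stellate cell markers lay between 2.28 and 4.14 CPM in control mice, with Lrat at 0 in all mice. In stress mice 1, 2 and 3 they lay at 82.0, 5.99 and 8.11 CPM. The NK and T cell markers lay between 9.15 and 97.0 CPM in control mice and between 127 and 159 CPM in stress mice. The dendritic cell markers lay between 20.9 and 48.6 CPM in control mice and between 51.7 and 113 CPM in stress mice. All 4 sums were higher in every stress mouse. The neutrophil, B cell, endothelial, H22 tumor and red cell marker sums overlapped between the groups. The part of such transcripts in the differences above was not tested. Median mitochondrial shares were 2.29%, 2.0% and 1.91% of UMIs among control mice and 2.40%, 3.04% and 2.30% of UMIs among stress mice.

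Stress effects in cluster 11 were also set against those in the other clusters by a test of the difference itself, in which all 3 clusters of the 6 mice shared a fit with the mouse as a term. Against cluster 12, 0 of 10545 genes (0.00%) were called by edgeR, 400 had an unadjusted p under 0.05, and DESeq2 called 1. Without control mouse 2 the count was 10. Against cluster 13, 1 gene (0.00948%) was called, 491 had an unadjusted p under 0.05, and DESeq2 called 2. None of the 6 label genes was called against either cluster, with adjusted p of 0.869 for Apoe against cluster 13 and 1 otherwise. The differences were widest for H2-Aa, at -2.30 (SE 1.10) against cluster 12 and -2.61 (SE 1.04) against cluster 13, and for Cd74, at -1.94 (SE 0.79) and -2.0 (SE 0.77). Fitted separately within each cluster, with no mouse term, the stress effect on H2-Aa was 0.11, 0.81 and 1.17 in clusters 11, 12 and 13. The joint fit compares clusters within each mouse, so its differences need not equal the gaps between these separate effects. In clusters 12 and 13 of control mice 1 and 3 H2-Aa lay between 10.9 and 34.1 CPM. When a mouse was left out, its difference lay between -3.98 and -1.02 against cluster 12 and between -3.80 and -1.44 against cluster 13. With no filter on low counts H2-Aa and Cd74 were called against both clusters, and C1qa, C1qc and Apoe against cluster 13 (adjusted p = 0.00244, 0.00391 and 0.0213). Without control mouse 2 the difference of Cd74 against cluster 12 was -3.05 (adjusted p = 0.0461). The gene called against cluster 13 was Fnip2, a folliculin-interacting protein of nutrient sensing (chr3:79455974-79567796). In cluster 11 it lay at 114, 124 and 168 CPM in control mice and at 275, 175 and 248 CPM in stress mice, and in cluster 13 at 321, 225 and 414 CPM and at 221, 172 and 174 CPM. It was higher in every stress mouse in cluster 11 and lower in every stress mouse in cluster 13. The difference of the stress effects was 1.55 on the log2 scale (SE 0.23, adjusted p = 0.0406). It missed the threshold without called doublets (adjusted p = 0.133) and when any mouse but control mouse 2 was left out. Of the 11 genes called in cluster 11, 6 were among the 19 called in cluster 12 and 6 among the 9 called in cluster 13, in contrasts that use the same mice.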

How the data were processed

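Tumor tissue of 3 control and 3 stress mice was measured in separate libraries. What the authors deposited are UMI counts for every gene in every cell, without normalization, and a table that assigns each annotated cell a mouse, class and cluster. Per the file headers, counting used Cell Ranger 9.0.0 (control) and 7.1.0 (stress), against mm10 per the labels. The annotation used for counting is not given in the sources used here. The authors kept cells with at least 200 genes and at most 20% mitochondrial UMIs. UMI totals of 491 cells differed from the deposited table by at most 26, and matrix counts were used. Gene positions come from GENCODE (GRCm38) and promoters from RefSeq.

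Sums of the cluster 11 counts of each mouse entered edgeR 4.0.16 under R 4.3.3, with its default low-count filter, TMM scaling, the quasi-likelihood test and Benjamini-Hochberg adjustment at a threshold of 0.05. Differences between clusters were tested as an interaction with mouse as a term. Shares were compared by exact permutation. With 3 mice per group these p-values measure the spread between mice only. CPM are not length-scaled. Alternatives were DESeq2 1.42.0, RLE scaling, no low-count filter, 107 cells per mouse, cells thinned to 1000 UMIs, no called doublets, the replicate number as a block, and leaving out each mouse. Leaving out Kupffer-marker cells or epithelial-transcript cells, and edgeR on cell numbers, were alternatives chosen after seeing the data. The authors had removed doublets with Scrublet before annotation, per their methods. Scrublet was run again in scanpy 1.11.5 (Python 3.11.15), and cells it called were kept. Simulated data were used to test the edgeR fit.

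The members and gene lists were chosen with earlier results of these data known. Named genes are the label genes and cell type markers, genes past the threshold, every list's 4 most abundant members, the 20 genes of at least 100 CPM with the largest ratio to clusters 12 and 13, and F11r. List members whose groups did not overlap, Cd86, Hspa1a, Fkbp5, Eno1, Ccl4 in the difference, genes lower in cluster 11, and the genes compared between Kupffer-marker and other cells were named after their values were seen.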

Additional observations from a re-analysis of the deposited data

Results flagged for a closer look

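The stress effect on Fnip2 differed between cluster 11 and cluster 13 by 1.55 on the log2 scale (edgeR quasi-likelihood test of the interaction, SE 0.23, adjusted p = 0.0406). In cluster 11 the log2 fold change was 0.87 and every stress mouse lay above every control mouse, and in cluster 13 it was -0.75 and every stress mouse lay below. Neither effect passed the threshold within its own cluster (adjusted p = 0.222 and 0.505). When a mouse was left out the difference lay between 1.38 (adjusted p = 0.597, without control mouse 1) and 1.84 (adjusted p = 0.00212, without control mouse 2), and it passed the threshold in the latter case alone. Without called doublets it was 1.64 (adjusted p = 0.133). In cluster 12 Fnip2 lay at 146, 119 and 236 CPM in control mice and at 303, 137 and 199 CPM in stress mice, with overlap. The difference from cluster 12 was 0.40 (SE 0.24, adjusted p = 1).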

How the results depend on the processing

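The count of 11 genes called between stress and control mice became 496 with no filter on low counts, 129 with DESeq2, 26 with 107 cells per mouse, 26 without Kupffer-marker cells and 7 after thinning, and lay between 3 and 57 when a mouse was left out, the latter without control mouse 2. Cmss1, Gphn and Lars2 passed the threshold in all 15 alternatives. Against cluster 12 the count of 0 became 54 with no filter and 1 with DESeq2, and lay between 0 and 10 when a mouse was left out. Against cluster 13 the count of 1 became 77 with no filter, 2 with DESeq2 and 0 without called doublets, and lay between 0 and 3 when a mouse was left out. The log2 fold change of H2-Aa was -0.0136 after thinning and -0.00557 without called doublets, that of Cd74 -0.0165 and -0.0119, with a range of -0.0366 to 0.35 when a mouse was left out. Ldha had 0.0360 after thinning and F11r -0.0255 with 107 cells per mouse and -0.0663 to 0.17 when a mouse was left out. The difference of stress effects against cluster 12 was 0.0214 for C1qa in DESeq2, and when a mouse was left out it lay between -0.380 and 0.51 for C1qa, with 0.374 without stress mouse 3, between -0.968 and 0.0509 for C1qb and between -0.593 and 0.0166 for C1qc. The cause was not tested for any of these. Of the other values of single genes under an alternative, 588 kept their direction and side of the threshold, 42 no longer passed it and 33 newly passed it. The share difference lay between 2.02 and 18.7 points of monocytes and between 1.76 and 4.3 points of all cells when a mouse was left out.

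Same-numbered mice deviated together with correlations of 0.340, 0.289 and 0.0158, so the numbers were not taken as pairs, and control mice 2 and 3 correlated best with another number (0.347 and 0.118). With the replicate block the stress contrast called 168 genes. In edgeR on cell numbers, the log2 fold change of cluster 11 was 0.96 (adjusted p = 0.711), and 1.34 (adjusted p = 0.00135) with the replicate block. Among monocytes it was 0.34 (adjusted p = 0.506) and 0.47 (adjusted p = 0.195). Sign flips within numbers cannot go below p = 0.25 and gave exact p = 0.50 and 0.25 for the shares of monocytes and of all cells.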

Other observations

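Some values belong to no comparison above. Of 1000 UMIs, the median cell of cluster 11 held 21, 23 and 13 from H2-Aa, H2-Ab1, H2-Eb1 and Cd74 among control mice, and 16, 22 and 17 among stress mice. Cxcl13, picked out after its values were seen as were Pf4 and Ppbp, is a B cell-attracting chemokine gene that lay at 395 CPM in control mouse 3 and between 1.07 and 64.0 CPM in the other mice. The chemokine genes Pf4 and Ppbp were likewise highest in control mouse 3, at 573 and 195 CPM.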
